A study of Bos taurus with 48 samples.

Results

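Genes that hold epithelial cells together and stiffen them from within were followed in bovine endometrium collected 17 days into the cycle. They were chosen by symbol from the annotation of a bovine Agilent array and comprise the claudins, occludin, the tight junction proteins and the JAM family, the cadherins with the exception of the endothelial CDH5, the catenins, the desmosomal cadherins, plakophilins, DSP and JUP, the connexins, the keratins and EPCAM. Of 20364 genes on the array 111 were members, represented by 115 of 21475 probes, and no measured value entered the rule. EPCAM, F11R, KRT19, CDH2 and JAM3 had no probe under these symbols. Genes are called by the array's names. The gene numbers or accessions of some probes carry another symbol in the RefSeq annotation of assembly ARS-UCD2.0, among them GJC1 for GJA7, GJD2 for GJA9, GJD3 for GJC1, KRT25 for KRT24 and KRT37 for KRT38, so the identity of these probes is uncertain. Others, among them those of KRT17, GJB2, GJA5, CDH23, DSC2 and TJP1, matched that annotation by symbol alone.

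Pieces of bulk caruncular and intercaruncular endometrium came from 22 lactating Holstein Friesian cows of mixed ancestry, all with synchronised cycles and all killed on day 17. A grade 1 embryo had been transferred to 12 of them on day 7 and these were pregnant, and the other 10 were cyclic. The caruncles are the aglandular sites at which the placenta attaches, and the intercaruncular tissue between them carries the uterine glands. For the pregnant cows the labels give a large embryo (over 20 cm and over 75 mg, 7 cows) or a small one (under 20 cm and under 40 mg, 5 cows), and a fertile or sub-fertile class (6 cows each). Large embryos came from 3 fertile and 4 sub-fertile cows and small ones from 3 fertile and 2 sub-fertile cows. RNA of each of the 44 samples carried Cy5 and shared its array with a pool of all samples carrying Cy3, so a level below is the log2 ratio of a sample to that pool, and 0 is the level of the pool. Such levels can be set against each other between samples of a gene and not between genes.

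Tight junctions seal the space between neighbouring epithelial cells. Claudins and occludin form their strands, and TJP proteins tie the strands to actin. In adherens junctions classical cadherins bind cadherins of the next cell and hold the actin cytoskeleton through catenins, while desmosomes use desmocollins, desmogleins, plakophilins, plakoglobin and desmoplakin to anchor keratin filaments, and connexins build the channels of gap junctions. In ruminants the conceptus attaches to an intact luminal epithelium rather than burrowing through it, so these contacts are the surface that the trophoblast meets.

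The array measured each transcript with a probe of 60 bases. The probes of 3 of the 4 members that were higher in pregnant cows in both tissues are shown because the results turn on them. A probe was to be shown only if it was free of stop codons in at least 1 forward reading frame, so this is no result. The 3 were also picked by name, so the absence of the CDH1 probe does not mean that it failed this rule. Each of the 3 held 60% G and C, so they did not differ in that share.
CDH4: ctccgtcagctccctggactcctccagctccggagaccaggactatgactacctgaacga
CLDN4: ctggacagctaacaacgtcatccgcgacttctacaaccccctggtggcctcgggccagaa
KRT17: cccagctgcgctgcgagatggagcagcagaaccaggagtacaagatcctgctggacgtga

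Probes entered the tests if 22 or more of the 44 samples gave a Cy5 signal of 80 units or over that the scanner software marked as well above background. This held for 14690 probes, among them those of 70 members. The other 41 members failed, and none of them was above background on every array of one group and on no array of another. Several are proteins of stratified epithelium and hair: KRT72, KRT73, KRT27, KRT84, KRT85 and DSC3 were above background on none of 48 arrays, and DSG1 and DSG3 on 2 and 1. DSG2, a desmoglein of simple epithelia, was above background on 1 array, and CLDN2, a channel-forming claudin, on 4. The members closest to passing were CDH9 with 29 arrays, DSC1 with 26 and CTNND2 with 24. DSC1 was above background on 11 of 12 intercaruncular arrays of pregnant cows and on 8 of 10 of cyclic cows, but on 4 of 13 and 3 of 13 caruncular arrays.

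Before any comparison, some samples and slides must be named. Between 68.7% and 85.4% of probes were above background on each array, and the number of arrays rather than a read depth limits precision. The arrays lay on 12 slides of 4. Repeat arrays aside, 1 slide per tissue held both states, with 3 pregnant cows and 1 cyclic cow, and both tissues shared a slide in 2 cows alone, cows Cyclic_9786 and Pregnant_9790, named as their labels name them, which were scanned with the repeat arrays as a separate batch. The 2 samples of cow Cyclic_9786 and the intercaruncular sample of cow Pregnant_9790 stood apart: their profiles differed from the mean of the other samples of their group with SDs of 0.802, 0.638 and 0.641, against a median of 0.375 over 44 samples. Results that rest on these cows are given with and without them. In bulk tissue, fewer cells of a type and less RNA per cell cannot be told apart.

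Which junction and keratin genes differed between pregnant and cyclic animals was asked first, in each tissue. A member was called when it differed at least 1.5-fold with a Benjamini-Hochberg adjusted p under 0.05 over all probes tested. In caruncular endometrium 19 of 70 members were called (27.1%, against 9.99% of all probes), 10 of them higher in pregnant cows (5.77% of all probes were) and 9 lower (4.21%). In intercaruncular endometrium 12 were called (17.1%, against 7.24% of all probes), 5 higher (3.99%) and 7 lower (3.25%). An unadjusted p under 0.05 was reached by 28 and 32 members, where 39.1% and 34.1% of all probes reached it, and for no member were the groups wholly separate, as they were for 1.89% and 1.14% of all probes. The members did not shift as a body: their median log2 change was -0.0537 in caruncular and -0.00177 in intercaruncular tissue, against -0.0431 and -0.0145 over all probes. CDH1, CDH4, CLDN4 and KRT17 were called higher and CDH13, CLDN10, CTNNAL1, GJA5 and KRT7 lower in both tissues. This is 47.4% of the caruncular and 75% of the intercaruncular calls, and the same cows gave both tissues. The share of all probes called in both tissues is not given here, so the overlap is not shown to be particular to the members.

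**Figure D1:**
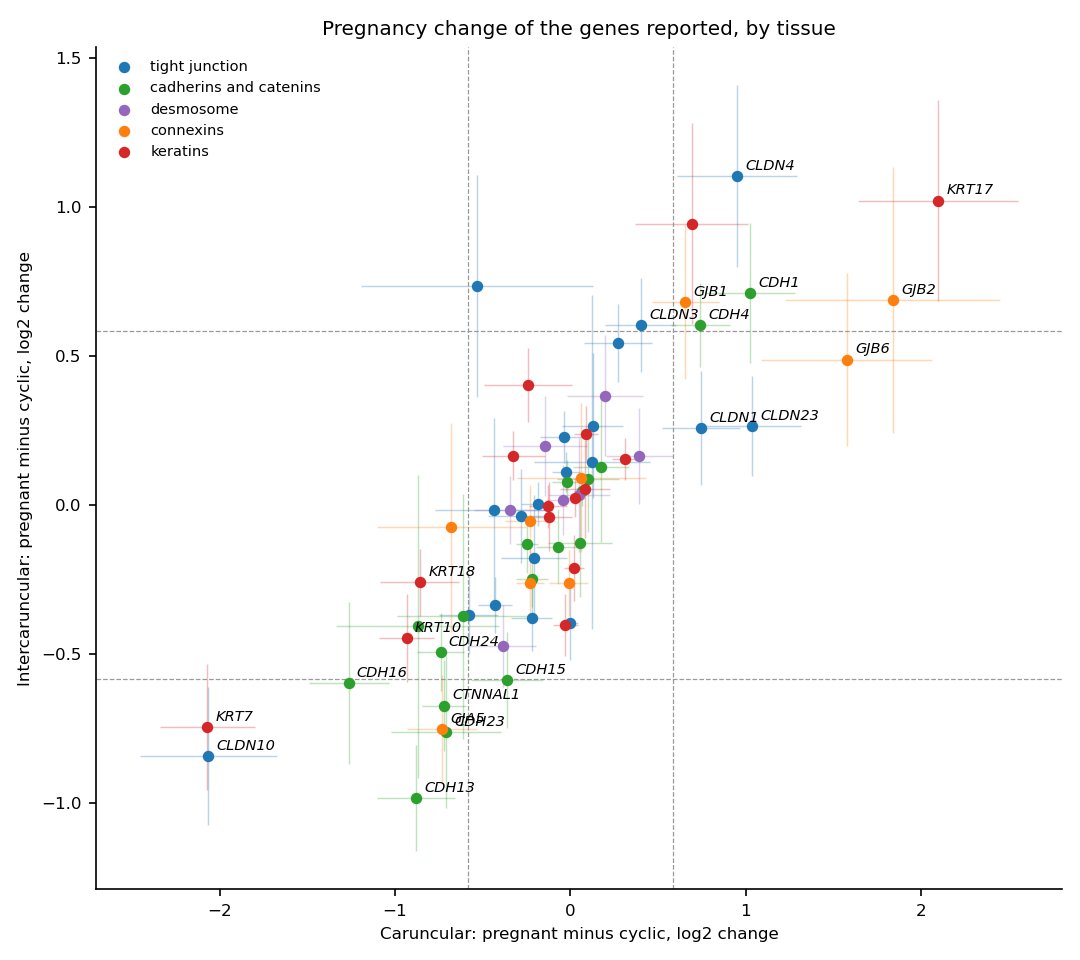
Log2 change with pregnancy of members tested, caruncular on the horizontal and intercaruncular on the vertical axis, with bars of 1 SE and members called in either tissue named. Dashed lines mark a 1.5-fold change. KRT17, CLDN4 and CDH1 lie at the upper right, KRT7 and CLDN10 at the lower left, and most members lie near the origin.

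Members of the tight junction went both ways. Of 19 tested, 3 rose and 1 fell in caruncular tissue, and 2 rose and 1 fell in intercaruncular tissue. CLDN4, a sealing claudin, had caruncular levels of -2.15, -0.53 and 0.76 (lowest, median and highest) in cyclic cows and of -1.03, 0.51 and 1.66 in pregnant cows, a log2 change of 0.95 (SE 0.341, adjusted p = 0.0422). Its groups overlapped, and 5 of 12 pregnant cows exceeded all cyclic cows. In intercaruncular tissue CLDN4 ran from -2.35 through -0.61 to -0.08 in cyclic cows and from -1.26 through 0.38 to 1.77 in pregnant cows, and rose by 1.10 (SE 0.306, adjusted p = 0.0139), and 9 of 12 pregnant cows exceeded the whole cyclic group. The lowest cyclic cow in both tissues was cow Cyclic_9786, without which the caruncular difference was 0.77 (adjusted p = 0.0739) and no longer called, as was so without cow Pregnant_9790 (0.90, adjusted p = 0.0601).

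CLDN1, a claudin needed for barrier function, and CLDN23 rose in caruncular tissue. CLDN23 was below 0 in every cyclic cow, with a lowest level of -1.55 and a median of -0.92, and lay between -1.24 and 0.97 around 0.45 in pregnant cows, a change of 1.04 (SE 0.283, adjusted p = 0.0096). CLDN1 was spread from -1.12 to -0.08 around -0.71 in cyclic and from -1.08 to 0.78 around 0.39 in pregnant cows, a change of 0.75 (SE 0.221, adjusted p = 0.0158). Most pregnant cows were above all cyclic cows, 7 of 12 for CLDN23 and 8 of 12 for CLDN1, and a second CLDN1 probe rose as well (1.03, adjusted p = 0.0274). In intercaruncular tissue both changes were 0.26 and neither was called. The lowest pregnant cow for both genes was cow Pregnant_9790.

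CLDN10, an ion-channel claudin of secretory epithelia, was the tight junction member that fell. Its caruncular levels were -1.0, -0.20 and 1.52 in cyclic cows and -3.41, -2.08 and -0.20 in pregnant cows, a log2 change of -2.06 (SE 0.389, adjusted p = 5.22e-04). Of the pregnant cows 10 of 12 lay below every cyclic cow, and cow Pregnant_9790 was the highest of them. In intercaruncular tissue CLDN10 ran from -0.08 through 0.58 to 1.79 in cyclic cows and from -1.09 through -0.32 to 0.95 in pregnant cows and fell by 0.84 (SE 0.232, adjusted p = 0.0131), with 7 of 12 pregnant cows below all cyclic ones.

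CLDN3, another sealing claudin, was called in intercaruncular tissue. Its levels there were -1.68, -0.50 and -0.07 in cyclic cows and -0.52, 0.12 and 0.59 in pregnant cows, a change of 0.60 (SE 0.158, adjusted p = 0.01), and the change in caruncular tissue was 0.40. All 12 pregnant cows were above the cyclic mean and 8 were above every cyclic cow, but without cow Cyclic_9786 the change was 0.48, under 1.5-fold. OCLN, which encodes the strand protein occludin, differed by 0.54 in intercaruncular tissue (adjusted p = 0.00555) and by 0.27 in caruncular tissue. TJP1, the actin-linking scaffold ZO-1, differed by -0.43 (adjusted p = 0.00242) and -0.34 (adjusted p = 0.0134). These 3 differences of OCLN and TJP1 with their p were smaller than 1.5-fold, and the second TJP1 probe gave 0.11 and 0.26, so the probes of this gene disagreed in sign. The changes of CLDN5, the claudin of endothelium, were -0.28 and -0.04, and those of CLDN7 were 0.13 and 0.27, in caruncular and intercaruncular tissue.

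Of the 18 cadherins and catenins tested, 2 rose and 4 fell in each tissue. CDH1, which encodes E-cadherin, the cadherin of epithelial adherens junctions, had caruncular levels of -2.25, 0.01 and 0.19 in cyclic cows and 0.09, 0.62 and 1.80 in pregnant cows. It rose by 1.02 (SE 0.259, adjusted p = 0.00566), and 11 of 12 pregnant cows were above all cyclic cows. In intercaruncular tissue its levels were -2.07, -0.56 and -0.35 in cyclic cows and -0.95, -0.35 and 1.22 in pregnant cows, a rise of 0.71 (SE 0.235, adjusted p = 0.0351) with 6 of 12 above all cyclic cows. The extremes of the latter comparison were cow Cyclic_9786 at the bottom and cow Pregnant_9790 at the top, and the change was 0.57 (adjusted p = 0.0543) without the first and 0.45 (adjusted p = 0.0648) without both.

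CDH4, which encodes R-cadherin, moved with CDH1. For both genes cow Cyclic_9786 was the lowest cyclic cow in each tissue, and cow Pregnant_3956 the highest pregnant cow in caruncular tissue. Whether the CDH4 probe also picks up CDH1 transcript was not tested, so the rises of CDH1 and CDH4 are not shown to be separate. Caruncular levels were -1.10, -0.08 and 0.07 in cyclic cows against -0.18, 0.42 and 1.44 in pregnant cows (change 0.74, SE 0.169, adjusted p = 0.0027). Intercaruncular levels were -1.06, -0.56 and -0.39 against -0.52, -0.12 and 0.77 (change 0.60, SE 0.141, adjusted p = 0.00461). Every pregnant cow was above the cyclic mean in both tissues, and 11 and 9 of 12 were above every cyclic cow. In intercaruncular tissue the change was 0.56 without cow Cyclic_9786 and 0.53 without cow Pregnant_9790, both under 1.5-fold with adjusted p of 0.00744 and 0.00481.

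The members that fell in this family were mostly cadherins other than those of the classical epithelial contact. CDH13, which encodes the membrane-anchored T-cadherin of vessels and muscle, had caruncular levels of 0.30, 0.56 and 1.09 in cyclic cows and -1.56, -0.28 and 0.86 in pregnant cows (change -0.88, SE 0.221, adjusted p = 0.00546). In intercaruncular tissue they were 0.06, 0.46 and 1.10 against -1.31, -0.24 and 0.11 (change -0.99, SE 0.177, adjusted p = 5.45e-04), and 11 of 12 pregnant cows lay below every cyclic cow. CTNNAL1, the alpha-catenin-like protein, fell by 0.72 (SE 0.125, adjusted p = 2.30e-04) and by 0.67 (SE 0.152, adjusted p = 0.0035). Its pregnant cows lay below all cyclic cows in 10 and 9 of 12 cases.

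CDH16, the kidney cadherin, fell in caruncular tissue from a median of -0.13 (range -0.70 to 0.85) in cyclic to -1.31 (-2.46 to -0.50) in pregnant cows, a change of -1.26 (SE 0.228, adjusted p = 3.48e-04). CDH24 fell there from -0.01 (-0.55 to 0.74) to -0.72 (-1.07 to -0.18), a change of -0.74 (SE 0.136, adjusted p = 4.08e-04). All 12 pregnant cows were below the cyclic mean for both genes, and 9 and 10 were below every cyclic cow. Called in intercaruncular tissue were CDH23, a cadherin of sensory hair bundles, which fell by 0.76 (adjusted p = 0.0374), and CDH15, the cadherin of muscle, which fell by 0.59 (adjusted p = 0.0135) and lost the 1.5-fold change without cow Cyclic_9786 (-0.55) or cow Pregnant_9790 (-0.54). The central catenins differed little: CTNNB1, beta-catenin, by 0.10 and 0.09 and CTNND1, p120-catenin, by -0.22 and -0.25 in caruncular and intercaruncular tissue, none of them called.

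No desmosomal member was called by limma with pregnancy in either tissue, of 7 tested. At an unadjusted p under 0.05, 0 passed in caruncular and 1 in intercaruncular tissue. The latter was DSP, desmoplakin, which links the desmosome to keratin filaments. In intercaruncular tissue it ranged from 0.05 through 0.79 to 1.36 in cyclic cows and from -0.22 through 0.23 to 0.74 in pregnant cows, a difference of -0.47 (adjusted p = 0.0175) under 1.5-fold, and in caruncular tissue the difference was -0.39. JUP, plakoglobin, differed by 0.05 and 0.03, and PKP2, a plakophilin of simple epithelium, by -0.14 and 0.20.

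Connexins gave 4 rises and 1 fall of 11 tested in caruncular tissue, and 1 fall in intercaruncular tissue. GJB2, connexin 26 of epithelia, had caruncular levels of -3.10, -2.65 and -1.90 in cyclic cows and -4.14, -0.34 and 2.02 in pregnant cows (change 1.84, SE 0.614, adjusted p = 0.0299). GJB6, connexin 30, ran from -2.33 through -1.80 to -1.11 in cyclic cows and from -2.20 through -0.02 to 2.33 in pregnant cows (change 1.58, SE 0.488, adjusted p = 0.0203). Cyclic cows were tightly grouped for both genes, and pregnant cows were split, 8 of 12 above every cyclic cow and the rest within or below their range. GJB2 had the largest SD of any member among caruncular samples of pregnant cows, 2.02 against a median of 0.491 over the 70 members. The lowest pregnant cow was cow Pregnant_9790 and the highest cow Pregnant_3803 for both genes in both tissues.

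GJB1, connexin 32 of secretory epithelia, rose by less. It moved from a caruncular median of -1.03 (-1.29 to -0.47) to -0.24 (-1.13 to 0.87), a change of 0.66 (SE 0.192, adjusted p = 0.0146). In 8 of 12 pregnant cows the level was above all cyclic cows. In intercaruncular tissue the changes of GJB1, GJB2 and GJB6 were 0.68, 0.69 and 0.49 and were not called, that of GJB1 with an adjusted p of 0.0654. Without cow Pregnant_9790 the change of GJB1 was 0.81 (adjusted p = 0.0167) and was called.

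GJA5, connexin 40 of arterial endothelium, fell in both tissues. Its caruncular levels were -0.68, 0.27 and 0.55 in cyclic cows and -1.42, -0.52 and 0.29 in pregnant cows (change -0.73, SE 0.197, adjusted p = 0.00868). The intercaruncular ones were -0.03, 0.59 and 1.26 against -0.95, -0.17 and 0.92 (change -0.75, SE 0.18, adjusted p = 0.00541). In each tissue 11 of 12 pregnant cows were below the cyclic mean, and 4 and 8 were below all cyclic cows. GJA1, connexin 43 of stroma and muscle, changed by 0.06 and 0.09 and was not called.

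Among 15 keratins tested, 1 rose and 3 fell in caruncular tissue and 1 rose and 1 fell in intercaruncular tissue. KRT17, a keratin of basal and stressed epithelium, had caruncular levels of -2.81, -1.96 and -1.41 in cyclic cows and -2.49, 0.02 and 2.05 in pregnant cows. It rose by 2.10 (SE 0.456, adjusted p = 0.00185), the largest rise of a member, and 10 of 12 pregnant cows were above every cyclic cow. The 2 others, cows Pregnant_3807 and Pregnant_9790, lay within the cyclic range at -2.49 and -2.48. In intercaruncular tissue the levels were -2.80, -1.95 and -0.59 against -2.81, -0.61 and 0.51 (change 1.02, SE 0.336, adjusted p = 0.0346), with 6 of 12 pregnant cows above and cow Pregnant_9790 below all cyclic cows, and without cow Cyclic_9786 the change was 0.91 (adjusted p = 0.0543).

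KRT7, a keratin of simple glandular epithelium, fell furthest. Its caruncular levels were -0.30, 0.51 and 1.18 in cyclic cows and -2.70, -1.70 and -0.14 in pregnant cows (change -2.07, SE 0.272, adjusted p = 8.48e-06). Of 12 pregnant cows 11 were below every cyclic cow. In intercaruncular tissue they were -0.33, 0.84 and 1.22 against -0.70, -0.21 and 0.49 (change -0.75, SE 0.213, adjusted p = 0.0165), with 6 of 12 below every cyclic cow.

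KRT18, the partner with which KRT8 pairs in simple epithelium, fell in caruncular tissue from a median of -0.71 (-1.37 to -0.06) to -1.62 (-2.66 to -0.37), a change of -0.86 (SE 0.226, adjusted p = 0.00759). KRT10, a keratin of differentiating stratified epithelium, fell there from 0.12 (-0.46 to 0.31) to -0.90 (-1.62 to -0.18), a change of -0.93 (SE 0.158, adjusted p = 1.89e-04). The pregnant cows lay below all cyclic cows in 8 and 9 of 12 cases. In intercaruncular tissue KRT18 differed by -0.26 and KRT10 by -0.45 (adjusted p = 0.035), under 1.5-fold. KRT8 itself differed by -0.32 and 0.16 in caruncular and intercaruncular tissue and was not called.

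**Figure D2:**
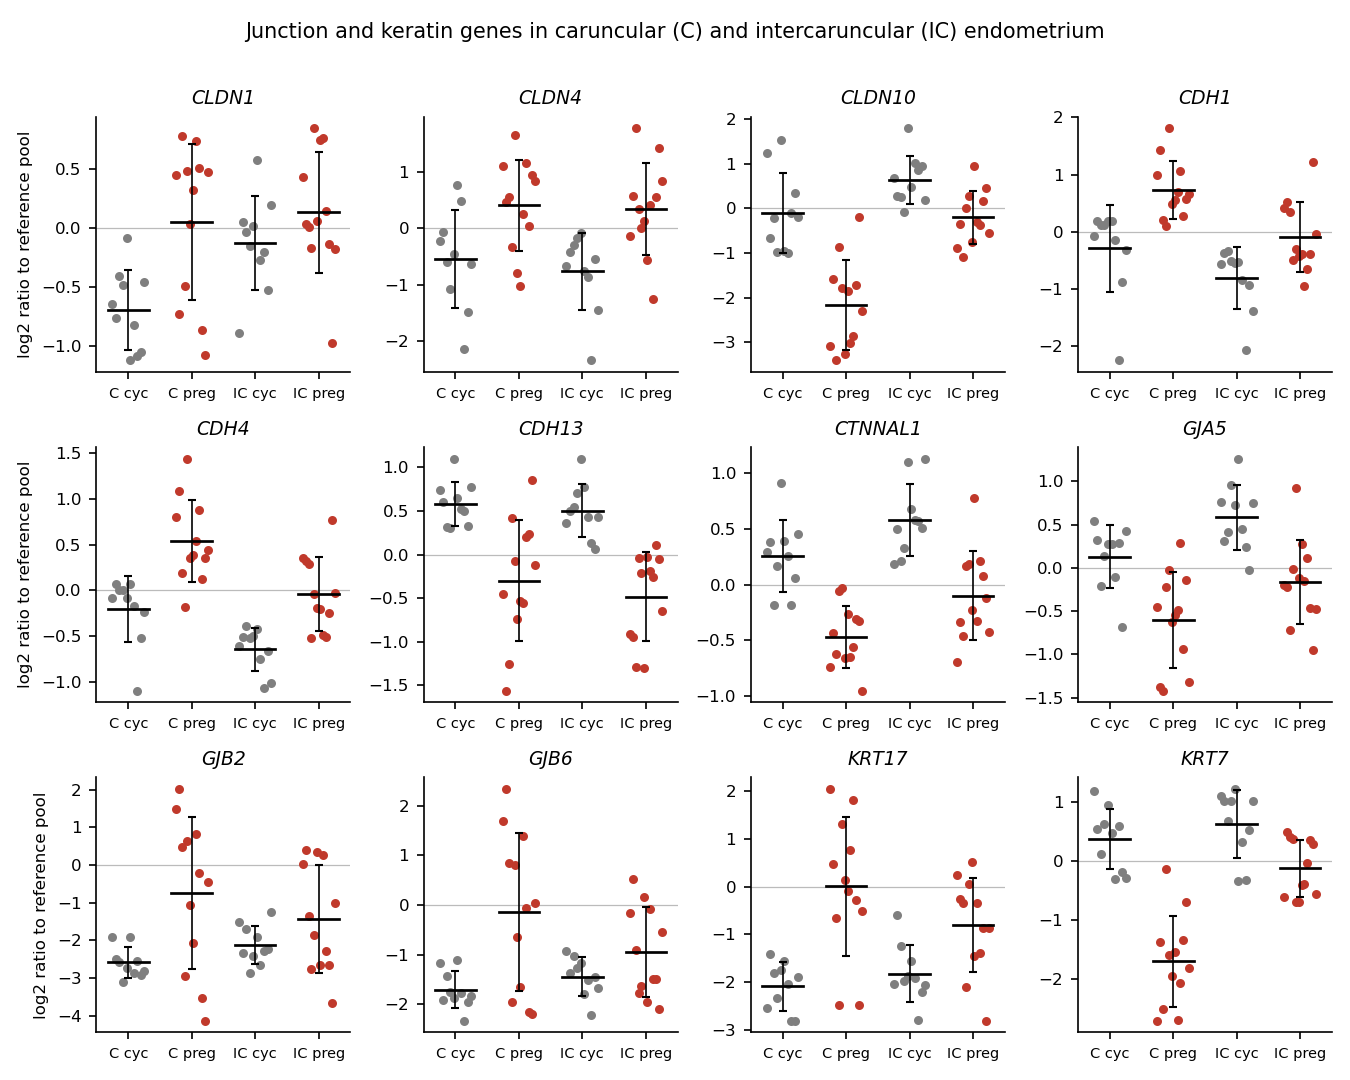
Levels of 12 members in caruncular (C) and intercaruncular (IC) endometrium of cyclic (grey) and pregnant (red) cows, as the log2 ratio to the reference pool. Points are cows, horizontal lines group means and bars 1 SD. The caruncular pregnant cows of KRT7 and CLDN10 lie almost wholly below the cyclic cows, those of CDH1, CDH4 and KRT17 almost wholly above, and those of GJB2 and GJB6 are split.

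Marker lists of other cell types moved with pregnancy beside these genes. Endothelium markers were lower in 5 of 11 (caruncular) and 4 of 11 (intercaruncular), with a level per sample (the mean log2 ratio of the list) of -0.153 to 0.52 in caruncular samples of cyclic and -0.746 to 0.309 of pregnant cows, and of 0.149 to 0.763 against -0.588 to 0.258 in intercaruncular ones. Smooth muscle markers were lower in 5 of 9 in each tissue, between -0.378 and 0.971 in caruncular cyclic and -1.34 and 0.527 in caruncular pregnant samples, and between -0.775 and 0.712 against -1.55 and 0.127 in intercaruncular samples. These lists fell alongside CDH13, GJA5 and CDH15, members of vessels and muscle, and their part in those falls was not tested. Of 16 epithelium markers that are no members, 2 rose and 2 fell in caruncular and 2 rose and 0 fell in intercaruncular tissue. In caruncular tissue 13 of the 16 were below 0, with a median change of -0.394 against -0.0431 over all probes and sample levels of -1.1 to 0.0921 in cyclic and -1.44 to -0.106 in pregnant cows, beside the falls of KRT7, KRT18 and CLDN10, and their part was not tested. Of 12 stroma markers 1 rose and 2 fell in caruncular tissue, and 0 rose and 4 fell in intercaruncular tissue (median -0.446, 11 of 12 below 0, sample levels of 0.0656 to 0.713 against -0.596 to 0.234). Leukocyte markers were above 0 in 17 and 16 of 19, with medians of 0.335 and 0.307, and 2 and 1 of them rose. Of 19 markers of the conceptus on the array, only 2 passed the filter and neither was called. IFN-tau-c1, the trophoblast interferon, and PAG11 and PRP1 were above background on no array of any group. Of the 19, 12 were above it on none of 10 intercaruncular arrays of cyclic and 7 on none of 12 of pregnant cows. CDX2, PAG4, PAG5, PAG9, TKDP1 and TKDP4 were above it there on some array of pregnant cows alone, and PAG2 on some of cyclic cows alone. In caruncular tissue these counts were 7 for cyclic and 6 for pregnant cows, each on 13 arrays. A part of conceptus RNA was not tested.

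Genes that work with the members were taken from lists of their partners. None of 21 junction scaffold and polarity genes was called in caruncular tissue, and 1, MAGI2, fell by 0.61 in intercaruncular tissue. Of 13 further adherens and desmosome partners, 3 fell in caruncular tissue, among them PPL, periplakin, by 1.07 (adjusted p = 0.00135) and ARVCF, a p120-family catenin, by 0.70, and 0 were called in intercaruncular tissue. None of 7 hemidesmosome genes was called. Of 6 transcription factors linked to the epithelial or mesenchymal state, GRHL1, an epithelial grainyhead factor, fell by 0.78 and 0.66 and SNAI2, a repressor of E-cadherin, fell by 0.62 and 0.75 in caruncular and intercaruncular tissue.

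Slides limited these calls. With slide as a fixed block, which leaves the single mixed slide of each tissue to separate the states, 0 members were called in either tissue, while 18 of 19 and 11 of 12 kept their direction. With slide as a random block 12 caruncular and 7 intercaruncular members were called. In that fit the caruncular rises of CLDN1, CLDN4, GJB1, GJB2 and GJB6 and the fall of KRT18 were no longer called, with adjusted p between 0.0579 and 0.146. In intercaruncular tissue CDH1, CDH15, CDH23, CLDN10, KRT17 and KRT7 were no longer called, with adjusted p between 0.0898 and 0.267. Without cow Cyclic_9786, 18 caruncular and 8 intercaruncular members were called, and without cow Pregnant_9790 there were 19 and 12. The shares of all probes called in these slide and leave-out fits are not given here.

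An interaction term asked whether the pregnancy change was unequal in the 2 tissues. No member was called by limma (0.0204% of all probes were), and 9 had an unadjusted p under 0.05, where 7.37% of all probes did. The smallest p belonged to KRT7, whose caruncular fall exceeded its intercaruncular one by 1.32 (SE 0.354, p = 5.36e-04, adjusted p = 0.231). KRT75 and CLDN9 followed, with differences of 0.37 (p = 0.00452) and 0.39 (p = 0.00595). As both tissues came from the same cows, the comparison was also made within cow. With cow as a fixed block 2 members were called, KRT7 (-1.32, adjusted p = 0.0245) and CLDN10 (-1.22, adjusted p = 0.0391), and with cow as a random block 4, KRT7 (adjusted p = 0.00656), CLDN10 (adjusted p = 0.0284), CLDN9 (0.39, adjusted p = 0.0364) and KRT75 (0.36, adjusted p = 0.0405). The share of all probes given above came from the fit without a block, and shares with the block are not given here. With pregnancy, KRT7 and CLDN10 were called in both tissues and CLDN9 and KRT75 in neither. For the members called in a single tissue, a difference between the tissues was not shown.

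The tissues themselves were compared next, in a fit of all 44 samples that left out the pairing by cow, from which the SEs and adjusted p below come. Of 70 members 18 were called (25.7%, against 14.7% of all probes), 4 higher in caruncular endometrium (8.08% of all probes were) and 14 lower (6.64%). With cow as a fixed or random block all 18 were still called. No member's groups were wholly separate, as was so for 0.0136% of all probes. The median member differed by -0.136, against -0.0186 over all probes. Among cyclic cows alone 2 members were higher and 7 lower in caruncular tissue (7.04% and 5.19% of all probes, 12.2% together), and among pregnant cows alone 4 were higher and 18 lower (9.06% and 7.92%, 17% together). Nearly all caruncular and intercaruncular samples lay on different slides and in different scan batches, so tissue and slide cannot be told apart outside cows Cyclic_9786 and Pregnant_9790, whose 2 tissues shared a slide and whose differences are given with the members below, the cyclic cow first. With slide or scan date as a fixed block over the 48 arrays 0 members were called, while 17 of the 18 kept their direction. Of all 70 members, 15 and 18 had an unadjusted p under 0.05 in these limma fits. The share of all probes that did is not given here, so these counts are not shown to be particular to the members. Each array was a unit in these fits, so the repeat arrays of 4 caruncular samples counted separately.

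Connexins held the largest tissue difference of a member in each direction. GJA1, connexin 43, had levels of -0.47, 0.95 and 2.87 (lowest, median and highest of 22) in caruncular and -2.28, -1.32 and 0.28 in intercaruncular tissue, a difference of 2.23 (SE 0.229, adjusted p = 1.77e-10). It was higher in the caruncular sample of all 22 cows, by 0.79 to 3.38, and by 2.59 and 2.10 in the cows with both tissues on 1 slide. GJB5, a beta connexin, went the other way, with -3.79, -2.08 and 0.53 in caruncular and -1.64, 0.10 and 2.22 in intercaruncular tissue (difference -2.09, SE 0.284, adjusted p = 5.76e-08). It was lower in the caruncular sample of 20 of 22 cows, with differences of -3.49 and -0.87 in the same-slide cows.

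GJB1 differed by -0.58 (adjusted p = 0.00287), just under 1.5-fold, and was called without cow Cyclic_9786 or Pregnant_9790 (-0.62 and -0.60). Those same-slide cows went the other way, with 0.23 and 0.0099. GJB1 and GJB5 are connexins of epithelia, whereas GJA1 is widespread in stroma.

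Desmosomal members were lower in caruncular tissue in 3 of 7. DSP had levels of -1.90, -0.74 and 0.11 in caruncular and -0.22, 0.44 and 1.36 in intercaruncular tissue, a difference of -1.33 (SE 0.12, adjusted p = 1.29e-11), the smallest p of a member. It was lower in the caruncular sample of all 22 cows, with -0.90 and -0.98 in the same-slide cows, and 20 of 22 caruncular samples lay below every intercaruncular one. DSC2, a desmocollin of simple epithelium, differed by -0.87 (SE 0.118, adjusted p = 5.51e-08) and PKP2 by -0.71 (SE 0.15, adjusted p = 9.44e-05), each lower in 21 of 22 cows. Same-slide cows gave -0.47 and -0.85 for DSC2 and -0.73 and -0.77 for PKP2. JUP differed by 0.26 and was not called.

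Keratins were lower in caruncular tissue in 3 of 15, and none was higher. KRT18 ran from -2.66 through -0.99 to -0.06 in caruncular and from -0.63 through 0.03 to 0.62 in intercaruncular tissue (difference -1.08, SE 0.129, adjusted p = 4.06e-09). The caruncular sample was the lower one in all 22 cows, with -0.75 and -0.81 in the same-slide cows. KRT7 differed by -0.91 (SE 0.177, adjusted p = 2.92e-05), in the 12 pregnant cows by -1.57 (adjusted p = 1.24e-06). Within cow it was lower in caruncular tissue of all pregnant cows but higher in 3 of 10 cyclic cows, and the same-slide cows gave 0.92 (cyclic) and -0.98 (pregnant). The probe named KRT24, whose gene number is that of KRT25 today, differed by -0.64 (adjusted p = 0.0216), with -0.56 and -0.23 in the same-slide cows, and KRT8 by -0.42 (adjusted p = 4.46e-04, under 1.5-fold).

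Tight junction members called between the tissues were CLDN8 and CLDN10, both lower in caruncular tissue. CLDN8, a claudin that restricts cation passage, had -5.05, -2.29 and 0.98 in caruncular and -2.45, -0.25 and 1.29 in intercaruncular tissue (difference -2.05, SE 0.391, adjusted p = 2.21e-05), and it was lower in caruncular tissue of 19 of 22 cows, with -3.79 and -0.92 in the same-slide cows. CLDN8 also varied most between caruncular samples of cyclic cows, with an SD of 1.81 against a median of 0.392 over the members. CLDN10 differed by -1.35 (SE 0.232, adjusted p = 4.38e-06) and was lower in 21 of 22 cows, with -0.94 and -0.66 in the same-slide cows. Under 1.5-fold with an adjusted p under 0.05 were TJP3 (-0.57, lower in all 22 cows), CLDN3 (-0.43) and OCLN (-0.40). A probe that is no member but is annotated as occludin, LOC512405, went the other way (0.44, also under 1.5-fold). The second probes of CLDN1 and TJP1 were called higher in caruncular tissue, by 0.70 and 0.92, where the brighter probes were not called, so the tissue contrast of these genes depends on the probe.

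Among the cadherins and catenins 3 were higher and 3 lower. CDH11, the cadherin of mesenchymal cells, had -0.16, 0.95 and 1.63 in caruncular and -1.14, -0.29 and 0.89 in intercaruncular tissue (difference 1.14, SE 0.132, adjusted p = 2.39e-09), higher in all 22 cows and by 1.18 and 0.53 in the same-slide cows. CDH19 was higher by 0.85 (adjusted p = 0.0107), in 18 of 22 cows and with 0.47 and -0.16 in the same-slide cows, and CDH1 by 0.68 (SE 0.179, adjusted p = 0.00136). CDH1 was higher in the caruncular sample of 19 of 22 cows, and the same-slide cows were 2 of the 3 exceptions, with -0.18 and -0.65, so the higher caruncular level of CDH1 was seen in no cow with both tissues on 1 slide. CDH12, CDH16 and CDH24 were lower in caruncular tissue, with differences of -1.18, -0.94 and -0.59. Same-slide cows gave -3.20 and -0.89 for CDH12, -0.36 and -0.43 for CDH16, and 0.45 and -0.23 for CDH24, in which the former was the only cow of 22 with a higher caruncular level. CTNNB1 differed by 0.58 (adjusted p = 1.70e-04), at the edge of 1.5-fold, and was called without cow Cyclic_9786 (0.62) or cow Pregnant_9790 (0.61). These same-slide cows, at -0.07 and -0.16, were the only 2 of 22 in which CTNNB1 was lower in caruncular tissue.

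**Figure D3:**
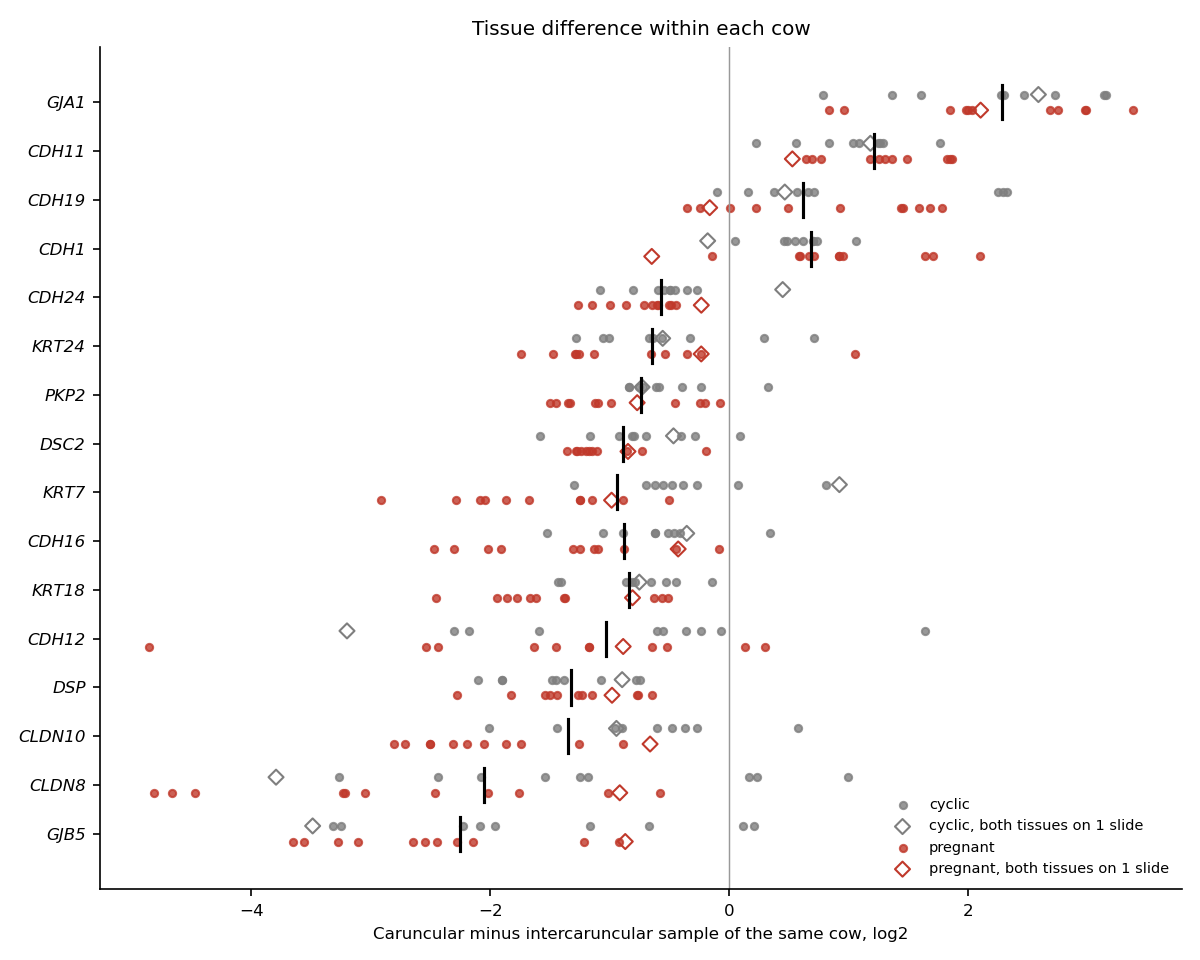
Caruncular minus intercaruncular level within each of 22 cows for members called between the tissues, in log2 units. Points are cows (grey cyclic, red pregnant), open diamonds the 2 cows with both tissues on 1 slide, and black ticks medians. GJA1 and CDH11 lie to the right of 0 and DSP and KRT18 to the left in every cow, and both diamonds of CDH1 lie left of 0.

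Other cell type markers differed between the tissues as well. Of 16 epithelium markers that are no members, 7 were lower in caruncular tissue and 0 higher, with a median change of -0.524 and a level per sample of -1.44 to 0.0921 in caruncular and -0.379 to 0.283 in intercaruncular samples. Of 12 stroma markers 7 were higher and 0 lower, with a median of 0.675 and sample levels of -0.331 to 1.26 against -0.596 to 0.713. Smooth muscle markers were above 0 in 9 of 9 and 3 were called higher (median 0.384, sample levels of -1.34 to 0.971 against -1.55 to 0.712). Between 14 and 16 of 17 epithelium markers were above background on all arrays of a group, and CD24 was above it on no caruncular array of pregnant cows. CLDN8, CLDN10, DSP, DSC2, KRT18 and GJB5 moved with the epithelium markers and CDH11 and GJA1 with the stroma and smooth muscle markers, and the part of tissue composition in these differences was not tested. CDH1 went against the epithelium list.

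Large and small embryos were compared among pregnant cows, with an adjusted p under 0.05 as the threshold. In intercaruncular tissue 3 of 70 members were called (4.29%, against 3.69% of all probes), a share near that of all probes, and all were lower with a large embryo (0 higher and 3 lower, against 1.57% and 2.12% of all probes). An unadjusted p under 0.05 was reached by 24 members, where 21.6% of all probes reached it. CDH23 had levels of -1.43, -0.42 and -0.20 in 7 cows with large and 0.25, 0.67 and 0.86 in 5 with small embryos (change -1.22, SE 0.217, adjusted p = 0.0214). CTNNAL1 had -0.69, -0.34 and -0.12 against 0.07, 0.19 and 0.78 (change -0.65, SE 0.131, adjusted p = 0.0275). TJP1 had -0.30, -0.15 and -0.06 against -0.03, 0.30 and 0.37 (change -0.40, SE 0.0871, adjusted p = 0.0329), while its second probe gave 0.07. For all 3 the groups did not overlap, as was so for 3.35% of all probes. The intercaruncular levels of stroma, endothelium and smooth muscle markers were also lower with large embryos, with medians of -0.451, -0.354 and -0.806 against 0.0143, 0.0619 and -0.432, and their part was not tested.

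These calls rested on few animals. Without cow Pregnant_932, Pregnant_3805, Pregnant_3807 or Pregnant_9246, 0 members were called. Without cow Pregnant_1943 there was 1, and without cow Pregnant_9790 there were 14. Shares of all probes called in these fits are not given here, so the rise to 14 is not shown to be particular to the members. The changes of CDH23 in those fits without a call lay between -1.20 and -1.13.

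In caruncular tissue limma called 0 members and 0 of all probes, 8 members had an unadjusted p under 0.05, where 6.9% of all probes did, and for 0.306% of all probes the groups were wholly separate. The smallest were GJB5 (change -1.37, p = 0.00373), GJA1 (1.16, p = 0.00541) and TJP1 (-0.38, p = 0.00712), each with an adjusted p of at least 0.614. GJB5 had -3.79, -2.98 and -2.04 with large and -2.62, -1.89 and -0.22 with small embryos. GJA1 had 0.70, 1.58 and 2.55 against -0.46, 0.23 and 1.38, and both groups overlapped.

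GJB2 and GJB6 are described here because of the split among pregnant cows, and were chosen after their values were seen. Intercaruncular GJB2 lay between -2.75 and -1.86 in the 5 cows with small embryos and at 0.02 in the median of 7 cows with large ones, 6 of which were above all of the former. The exception was cow Pregnant_9790 at -3.66. The change was 1.74 (SE 0.614, adjusted p = 0.126), and that of GJB6 was 1.22 (SE 0.361, adjusted p = 0.0787), so neither passed. Cow Pregnant_9790 carried a large embryo, and for both genes it was the lowest cow of either size in both tissues.

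**Figure D4:**
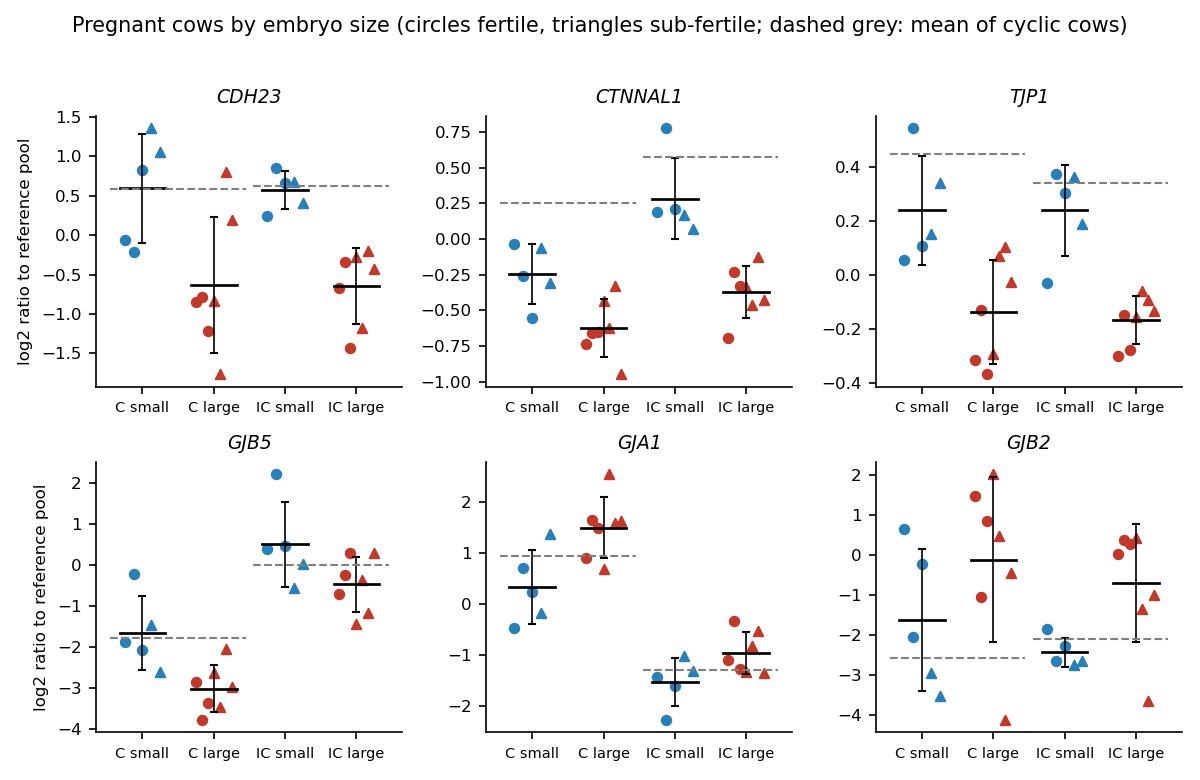
Levels of 6 members in pregnant cows with small (blue) and large (red) embryos, in caruncular (C) and intercaruncular (IC) tissue, as the log2 ratio to the reference pool. Circles are fertile and triangles sub-fertile cows, lines means, bars 1 SD, and dashed lines the mean of cyclic cows. CDH23, CTNNAL1 and TJP1 do not overlap in IC tissue, and for GJB2 the low cow with a large embryo is cow Pregnant_9790.

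Fertile and sub-fertile pregnant cows were compared last. No member was called by limma in caruncular tissue, where 0 of all probes were, nor in intercaruncular tissue, where 0.0477% of all probes were. At an unadjusted p under 0.05 there were 11 and 15 members, against 13.8% and 13.6% of all probes. In caruncular tissue the smallest p belonged to the probe named KRT24, KRT25 by its gene number today (change in sub-fertile cows -1.39, SE 0.283, p = 3.17e-04, adjusted p = 0.225). Its levels were -0.37, 0.07 and 0.83 in fertile and -1.85, -1.45 and -0.08 in sub-fertile cows, 5 of which lay below every fertile cow.

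KRT17 was next (change -1.99, SE 0.552, p = 0.00337, adjusted p = 0.277), with -0.08, 1.04 and 2.05 in fertile and -2.49, -0.59 and 0.47 in sub-fertile cows. PKP4, a plakophilin-related catenin, differed by 0.34 (SE 0.103, p = 0.00624, adjusted p = 0.278), higher in sub-fertile cows. In KRT17, the gene with the largest rise in pregnancy, 5 of the 6 sub-fertile cows were thus below every fertile cow, but the difference did not pass the adjustment over all probes.

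In intercaruncular tissue PKP4 had the smallest p. Its levels were -0.43, -0.27 and -0.14 in fertile and 0.09, 0.21 and 0.64 in sub-fertile cows (change 0.54, SE 0.101, p = 1.43e-04, adjusted p = 0.0875), and the groups did not overlap, as was so for 1.42% of all probes. KRT81, a hair keratin, differed by 0.34 (p = 6.98e-04, adjusted p = 0.148) without overlap, and CLDN9 by 0.41 (p = 0.00176, adjusted p = 0.159) with 5 of 6 sub-fertile cows above every fertile cow.

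Among themselves the members differed in how far cows of one group spread. Median SDs over the 70 members were 0.392 in caruncular cyclic, 0.491 in caruncular pregnant, 0.372 in intercaruncular cyclic and 0.362 in intercaruncular pregnant samples. CTNNBL1, a splicing-associated catenin-like protein, was among the steadiest, with an SD of 0.0602 in intercaruncular cyclic samples. CDH12 and CLDN16 spread most in intercaruncular tissue, with SDs of 1.22 in cyclic and 1.74 in pregnant cows.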

How the data were processed

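Endometrial RNA of 22 cows was measured on 48 arrays of 2 colours, and the repeat arrays of 4 caruncular samples were averaged. The deposited scanner files hold spot intensities and log10 ratios that the authors extracted with Feature Extraction (version 9.5.3.1 per the file headers), with background subtraction and LOWESS dye normalisation per the file headers. The deposited matrix holds log2 ratios by the authors, which were checked against the scanner files (lowest correlation 0.9815, column medians -0.0284 to 0.059) and used as an alternative. No array had a dye swap, and the direction is Cy5 sample over Cy3 pool as the methods state. The lowest correlation between 2 arrays was -0.469, and 4.88% of pairs were under -0.3.

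Log10 ratios were taken to log2, averaged over spots without outlier flags and centred on the array median. A gene stands by its brightest passing probe. limma 3.58.1 (lmFit, eBayes) in R 4.3.3 gave changes and Benjamini-Hochberg adjusted p over 14690 probes. The fits were also run on simulated data drawn independently for each sample. These data held no cow or slide effects, so they cannot show how the fits deal with such effects. The cow was the replicate within a tissue, while the main tissue and interaction fits took all 44 samples without pairing them by cow. Members called in pregnancy and tissue comparisons (up to 15) and a fixed set of central genes were to be named, and elsewhere those called or the 3 of smallest p. The tissues of a cow deviated together in 22 of 22 cows (correlations 0.11 to 0.869, median 0.613), so cow was also fitted as a block. Alternatives were background correction, centring, filter, probe rule, blocks, covariates, the methods' t-test and leaving out cows. A marker list's summed level is the mean log2 ratio of its genes. The members and lists were chosen with earlier results of these data known. No genome was used, and coordinates are not given here. The counts of members cover all members, and results of some connexins are not reported here.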

Additional observations from a re-analysis of the deposited data

Results flagged for a closer look

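Among 81 groups of 5 to 10 cows, each for 1 gene, tested for a sample far from the others, 11 held one, and 7 of these were cow Cyclic_9786. Most of the groups were the same 10 cyclic cows of a tissue for different genes. The 12 pregnant cows were tested only as split by embryo size or fertility, so the count does not compare cyclic with pregnant cows. Chance marks about 1 group in 20 if groups are independent, which genes measured in the same cows are not. In caruncular tissue this cyclic cow was low for CDH1 (-2.25), CDH4 (-1.10), CLDN5 (-1.08), CTNNB1 (-1.24) and JUP (-1.50), and in intercaruncular tissue for CLDN3 (-1.68) and CTNNB1 (-1.16). The nearest other caruncular cyclic cow stood at 0.29 for CTNNB1 and at 0.02 for JUP. Values of other cows far from their group were KRT8 at -0.69 in cow Cyclic_3972 (intercaruncular, cyclic), CTNNAL1 at 0.78 in cow Pregnant_9246 (intercaruncular, small embryo), KRT24 at -0.08 in cow Pregnant_9921 (caruncular, sub-fertile) and PKP4 at 0.64 in cow Pregnant_3803 (intercaruncular, sub-fertile).

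The pregnancy change differed between caruncular and intercaruncular tissue for 4 members when cow was a random block: KRT7 by -1.32, CLDN10 by -1.22, CLDN9 by 0.39 and KRT75 by 0.36. Without the block none of the 4 passed, and the share of all probes called with the block is not given here.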

How the results depend on the processing

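With slide as a fixed block, 0 members were called in the pregnancy comparison in caruncular and 0 in intercaruncular tissue, and with slide as a random block 12 and 7, of which 12 and 6 were among the calls of the report. Under the fixed slide block CLDN4 turned to -0.44 in caruncular and KRT7 to 0.43 in intercaruncular tissue. Between the tissues, slide or scan date as a fixed block over the 48 arrays gave 0 and 0 calls, 17 of 18 kept their direction, and KRT24 turned to 0.20 and 0.19. The cause was not tested, and few mixed slides carry these fits. For the interaction, the cow replicate block gave 2 calls when fixed and 4 when random against 0 without it, and it changed no call of the tissue comparison (18 of 18). Leaving out 1 cow at a time gave 0 to 14 calls for embryo size in intercaruncular tissue and 0 to 0 in caruncular tissue. Leaving out cow Cyclic_9786, Pregnant_9790 or both, chosen after seeing the data, gave 18 to 19 caruncular and 8 to 12 intercaruncular calls with pregnancy. Shares of all probes called under these alternatives are not given here, so a changed count is not shown to be particular to the members. Of 1447 values of named members under alternatives, 1305 kept their side of the threshold, 124 lost the call, 14 gained it and 4 turned. A turn was counted only for members called in the report or under the alternative. Values called in neither are among the 1305 even where their sign changed. The arrays per group, and signal over background for 41 members, limit what could be seen.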

Other observations

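Some probes carry earlier names of genes that had no probe under a member symbol, and they were left out of all counts. LOC514812, annotated as similar to cytokeratin 19, was lower in caruncular tissue of pregnant cows, with levels of -0.57, -0.16 and 0.66 in cyclic and -1.78, -0.97 and 0.07 in pregnant cows (change -0.77, adjusted p = 0.00323). LOC512405, annotated as occludin, was higher in pregnant cows, by 0.84 in caruncular tissue (adjusted p = 0.0252) and by 0.78 in the intercaruncular samples (adjusted p = 0.00236), where the OCLN probe gave 0.27 and 0.54 and was not called. Between the tissues the 2 probes disagreed in sign, with LOC512405 higher in caruncular tissue by 0.44 and the OCLN probe lower, neither of them called. TACSTD1, the earlier name of EPCAM, was lower in caruncular than intercaruncular tissue by a log2 difference of -0.66 and was not called with pregnancy (-0.36 and -0.0055). JAM1, the earlier name of F11R, was called in none of the 8 comparisons.

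Other intermediate filament genes were also measured. NEFH, a neurofilament subunit, rose in pregnant cows, by 2.20 in caruncular tissue (adjusted p = 2.76e-04) and by 1.32 in the intercaruncular samples (adjusted p = 0.0125). INA, another neuronal filament gene, fell by 1.29 in caruncular and NES, nestin, by 0.81 in intercaruncular tissue. Of 8 such genes tested, 1 rose and 1 fell in each tissue. DES, desmin, was higher in caruncular than intercaruncular tissue by 0.62.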
